A study of Mus musculus with 48 samples.

Results

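Tgtp1, Tgtp2, Gbp2, Gbp3, Gbp4, Gbp6, Gbp7, Igtp, Irgm1 and Irgm2 are 10 interferon-gamma-induced GTPase genes, and they were followed here in mouse skeletal muscle across genotype, pancreatic tumor and circadian time. The 10 genes were chosen by their symbols from the 56748 genes of the expression table, with measured values of these data in view, and all 10 passed the filter on low counts. The record of the choice does not say which values were used. For that reason the difference between tumor-bearing and control WT mice is given as a description wherever it appears, at single times too, and nothing is read from its calls.

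RNA was sequenced from the tibialis anterior, a fast hindlimb muscle, of male mice 39 to 55 weeks old. Murine KPC pancreatic cancer cells in saline were injected into the pancreas of KPC mice, control mice received the saline alone at the same surgery, and the study methods place muscle collection at the onset of wasting. Muscles were taken in constant darkness every 4 h over 6 circadian times (CT, in hours), from CT18 through CT38, and each genotype, condition and time had 2 mice, which gave 48 libraries in all. The FoxP1SkmKO mice carried floxed Foxp1 alleles and a Cre recombinase driven by the Acta1 promoter, which is active in muscle fibers, so that other cells of the muscle keep the gene. The comparison group, called WT, is labelled C57BL/6J, while the series design describes it as floxed mice without Cre. The 4 combinations of genotype and condition are named WT control, WT KPC, FoxP1SkmKO control and FoxP1SkmKO KPC, each with 12 mice.

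Interferon-gamma is a cytokine made mainly by T and NK cells. It binds a receptor of the subunits Ifngr1 and Ifngr2, which signals through the kinases Jak1 and Jak2 and raises the transcription factor Irf1. Guanylate-binding proteins (the Gbp genes) are large GTPases and immunity-related GTPases (the IRG family, here Tgtp1, Tgtp2, Igtp, Irgm1 and Irgm2) smaller ones, and both families are known for acting on membranes of vacuoles that hold intracellular microbes. Many cell types express them after exposure to interferon, not immune cells alone.

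The 10 genes lie on 3 chromosomes. Gbp2, Gbp3 and Gbp7 are on chromosome 3, Gbp4 and Gbp6 on chromosome 5, and the 5 IRG genes on chromosome 11 (build mm39). There, Irgm1, Tgtp1 and Tgtp2 have their lowest base at 48752795, 48876154 and 48948021, far from Igtp and Irgm2 at 58090382 and 58090444. Promoter windows from RefSeq (build GRCm38.p6, 250 bases before to 50 bases after each annotated start) were at hand for 8 of the 10, not for Gbp4 and Gbp6. They were searched on both strands for GAAA, 2 free bases and GAAA, a core of the interferon-stimulated response element, for TTCNNNGAA, a gamma-activated site, and for TGTTTAC, a forkhead motif, the motif class of Foxp1. The response element core was present in 8 of 8 member promoters and in 3.99% of the 27025 genes with a window. TTCNNNGAA was present in 5 of 8, those of Tgtp1, Tgtp2, Gbp7, Igtp and Irgm2, against 9.55% of genes, and both motifs together in the same 5, against 0.54%. TGTTTAC was found in 1 of 8, the Gbp3 promoter, against 4.05%. A match describes these letters only and is not a measured binding site.

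The short stretches that hold the matches are printed because they are shared within the families. Each is written 5′ to 3′ on the strand of its gene, with motif matches in capitals. In the Gbp promoters the response element core is read on the other strand, where GAAA appears as TTTC. The 4 IRG promoters in which both motifs lie within 29 bases are these:
Tgtp1: ccatTTCCAGGAAtcGAAACTGAAAccta
Tgtp2: ccatTTCCAGGAAtcGAAACCGAAAccta
Igtp: ccatTTCTAGGAActGAAACTGAAAgctg
Irgm2: ccatTTCCAGGAActGAAACTGAAAgctg
In GRCm39 these exact runs lie at chr11:48883137-48883165 (minus strand), chr11:48955096-48955124 (minus strand), chr11:58090333-58090361 (plus strand) and chr11:58105724-58105752 (plus strand), and in all 4 the gamma-activated site stands upstream of the response element. The other 4 promoters are shown around their matches to the response element core, which overlap each other in Irgm1 and Gbp3:
Irgm1: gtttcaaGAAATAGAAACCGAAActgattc
Gbp2: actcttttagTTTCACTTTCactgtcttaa
Gbp3: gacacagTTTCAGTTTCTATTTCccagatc
Gbp7: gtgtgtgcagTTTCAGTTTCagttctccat
They lie at chr11:48762255-48762284 (minus strand), chr3:142326355-142326384, chr3:142265753-142265782 and chr3:142236034-142236063 (plus strand). The stretches of Gbp2, Gbp3, Gbp7, Igtp and Irgm1 lie wholly within exons of the GENCODE annotation, taken over any gene and strand. That of Tgtp1 overlaps them by 11 of 29 bases, and those of Tgtp2 and Irgm2 by 0. Annotated starts differ between sources.

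Expression was low to moderate. FPKM values (fragments scaled by gene length and sequencing depth) are per length and allow genes to be ordered by level. In WT control muscle the order by mean FPKM (± SD, n = 12) was Irgm2 at 5.03 ± 0.691, Igtp at 4.82 ± 0.555, Gbp2 at 2.45 ± 0.438, Irgm1 at 2.31 ± 0.228, Gbp3 at 1.57 ± 0.285, Gbp4 at 1.49 ± 0.501, Gbp7 at 1.31 ± 0.352, Tgtp2 at 0.628 ± 0.303, Tgtp1 at 0.285 ± 0.150 and Gbp6 at 0.259 ± 0.0849. Igtp stood above Gbp2, Irgm1 above Gbp3, Gbp7 above Tgtp2 and Tgtp2 above Tgtp1 by more than the SD of either gene. Other neighbors in the order did not differ beyond their spread. In WT KPC muscle Igtp (8.25 ± 3.73) and Irgm2 (7.03 ± 2.37) stayed at the top, Gbp4 (3.83 ± 1.36) came next after Gbp2 and Gbp6 was last (0.431 ± 0.0882).

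Read sharing limits some of these levels. Of the distinct 100-base stretches of Tgtp1 and Tgtp2 transcripts, 74.7% and 76.8% occurred also in another gene, mostly in each other, and for Gbp6 the share was 53.6%, with Gbp10 and Gm43302. Values of Tgtp1, Tgtp2 and Gbp6 are therefore uncertain for the single gene. Igtp and Irgm2 overlap by 162 exonic bases on the same strand, and for Gbp7 the shared fraction was 8.68%. For the other 6 genes, Igtp and Irgm2 included, it was at most 4.08%.

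Library depth and labels were checked over the whole series. Gene counts summed to 14480867 to 20787784 per library, with a median of 16602091. Foxp1 itself did not separate the genotypes: its FPKM was 0.430 to 0.971 in WT control and 0.430 to 0.642 in FoxP1SkmKO control, and the genotype differences on the log2 scale (-0.11 ± 0.07 in control mice, edgeR adjusted p = 0.459, and -0.20 ± 0.07 in KPC mice, adjusted p = 0.246) did not pass. Gene-level counts do not check a deletion of some exons, so genotypes are given as labelled. The muscle label held, since 10 of 10 fiber markers were detected, with summed FPKM of 48274 to 66250.

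Several libraries stood apart from their groups on genes outside the lists used here. For 189 such genes, selected as higher in WT KPC than in WT control mice, the mean log2 level was taken relative to the WT control mean. It reached at most 0.0971 in a WT control library and was at least 0.193 in each WT KPC library. Because the selection used these same WT libraries, their separation was fixed by it, and FoxP1SkmKO libraries need not reach the same levels. The set was larger than the 182 genes that the edgeR fit to all 48 libraries called higher. 5 libraries labelled FoxP1SkmKO control, CT18 replicate 2 (0.352), CT22 replicate 1 (0.305), CT26 replicate 1 (0.392), CT26 replicate 2 (0.231) and CT34 replicate 1 (0.219), were above the lowest WT KPC library. Others of that group, CT18 replicate 1 (0.147), CT34 replicate 2 (0.144), CT22 replicate 2 (0.125) and CT30 replicate 2 (0.102), lay between the WT groups. The library labelled FoxP1SkmKO KPC CT22 replicate 1 (0.120) was below every WT KPC library. Over 128 genes selected as lower, WT control libraries ranged from -0.309 to 0.171 and WT KPC libraries from -0.719 to -0.0843. There FoxP1SkmKO control CT18 replicate 2 (-0.0620) and CT26 replicate 2 (-0.00753) were above every WT KPC library. CT22 replicate 1 (-0.165), CT26 replicate 1 (-0.289) and CT34 replicate 1 (-0.403) were within the WT KPC range, and FoxP1SkmKO KPC CT22 replicate 1 (0.117) was above it. Directions that involve FoxP1SkmKO mice rest on these labels.

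The members were high in 4 of these 5 control libraries and low in that KPC library. Among the 12 libraries labelled FoxP1SkmKO control, CT18 replicate 2 had 9 of 10 members above every WT control library, CT26 replicate 1 had 9, CT22 replicate 1 had 8 and CT34 replicate 1 had 6, and each of the other 8, CT26 replicate 2 included, had 0 or 1. In FoxP1SkmKO KPC CT22 replicate 1 only 1 of 10 was above every WT control library, where the other 11 of that group had 2 to 10. The share of all genes above every WT control library is not at hand for single libraries, so these counts are descriptions of the members. The map of log2 levels by library shows these libraries as columns that depart from their neighbors.

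**Figure D1:**
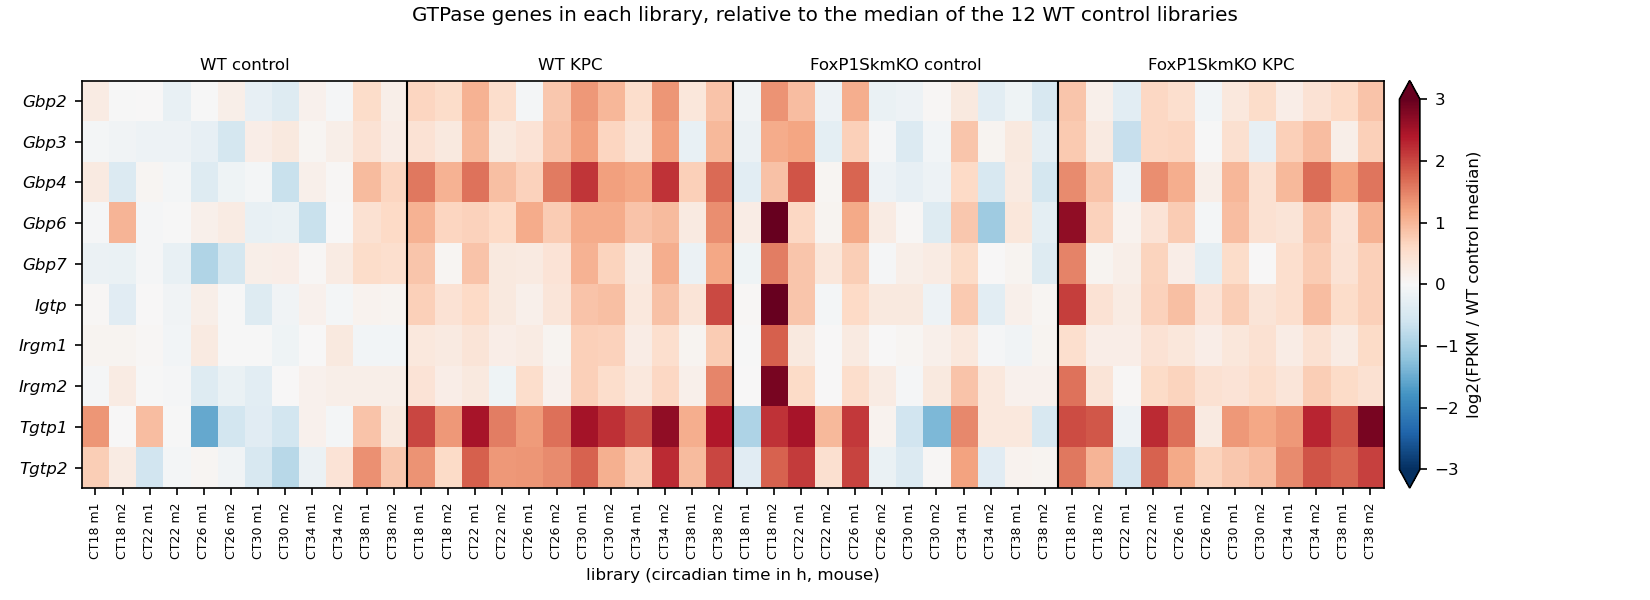
Level of the 10 genes in each of the 48 libraries as log2 of FPKM divided by the WT control median, with genes in rows, libraries in columns ordered by genotype, condition and circadian time, and a color scale that ends at 3 in either direction. The FoxP1SkmKO control columns CT18 replicate 2, CT22 replicate 1, CT26 replicate 1 and CT34 replicate 1 are high, and FoxP1SkmKO KPC CT22 replicate 1 is low among KPC columns.

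With tumors, the 10 GTPase genes were higher in WT muscle on average over the 6 times, from 1.27-fold for Irgm1 to 3.64-fold for Tgtp1. Because this contrast may have entered the choice of the genes, these values are descriptive. The effector-type IRG genes Tgtp1 and Tgtp2 and the guanylate-binding protein gene Gbp4 had the largest differences. The regulatory IRG genes Irgm1 and Irgm2, which keep effector IRG proteins inactive on the cell's own membranes, had the smallest. Igtp, also a regulatory IRG gene, did not share this and was 1.66-fold, beside 1.65-fold for Gbp2.

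Gbp4 ranged from 0.882 through a median of 1.39 to 2.68 FPKM in WT control and from 2.25 through 3.68 to 6.26 in WT KPC libraries. The groups overlapped only through 1 control library, CT38 replicate 1 at 2.68, and 9 of 12 KPC libraries were above every control. The averaged log2 difference was 1.39 ± 0.23 (SE).
Tgtp1 ranged from 0.0843 through 0.245 to 0.612 FPKM in WT control and from 0.518 through 0.960 to 1.55 in WT KPC libraries, on 5 to 79 reads per library. Here 1 control library, CT18 replicate 1, reached into the KPC range, and the averaged log2 difference was 1.87 ± 0.31.
Its near-identical copy Tgtp2 ranged from 0.295 through 0.529 to 1.36 FPKM in WT control and from 0.791 through 1.34 to 2.50 in WT KPC libraries, with a difference of 1.31 ± 0.27. With the reads of the pair summed as 1 gene the difference was 1.5 ± 0.27.

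Gbp2 ranged from 1.80 through 2.36 to 3.47 FPKM in WT control and from 2.28 through 3.89 to 5.89 in WT KPC libraries (log2 difference 0.73 ± 0.16). The groups overlapped here and in its cluster neighbors. Gbp3 ranged from 1.06 through 1.53 to 2.08 and from 1.3 through 2.22 to 3.57 (0.65 ± 0.18). Gbp7 ranged from 0.693 through 1.29 to 1.89 and from 1.15 through 1.89 to 2.90 (0.64 ± 0.17).
On chromosome 5, Gbp6 was near the detection floor at 0.145 through 0.230 to 0.469 FPKM in WT control and 0.279 through 0.430 to 0.604 in WT KPC libraries (0.76 ± 0.25).

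Igtp, a regulatory IRG gene also named Irgm3, ranged from 3.76 through 4.91 to 5.59 FPKM in WT control and from 5.45 through 7.02 to 19.3 in WT KPC libraries (log2 difference 0.73 ± 0.23). Its highest value came from CT38 replicate 2, more than 2 times the next library at 9.21. The same library was highest for Irgm2, which ranged from 3.81 through 5.0 to 5.92 in WT control and from 4.54 through 6.42 to 13.8 in WT KPC libraries (0.47 ± 0.19).
Irgm1 had the smallest difference, from 2.07 through 2.25 to 2.76 in WT control to 2.38 through 2.75 to 3.8 in WT KPC libraries (0.35 ± 0.12).

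**Figure D2:**
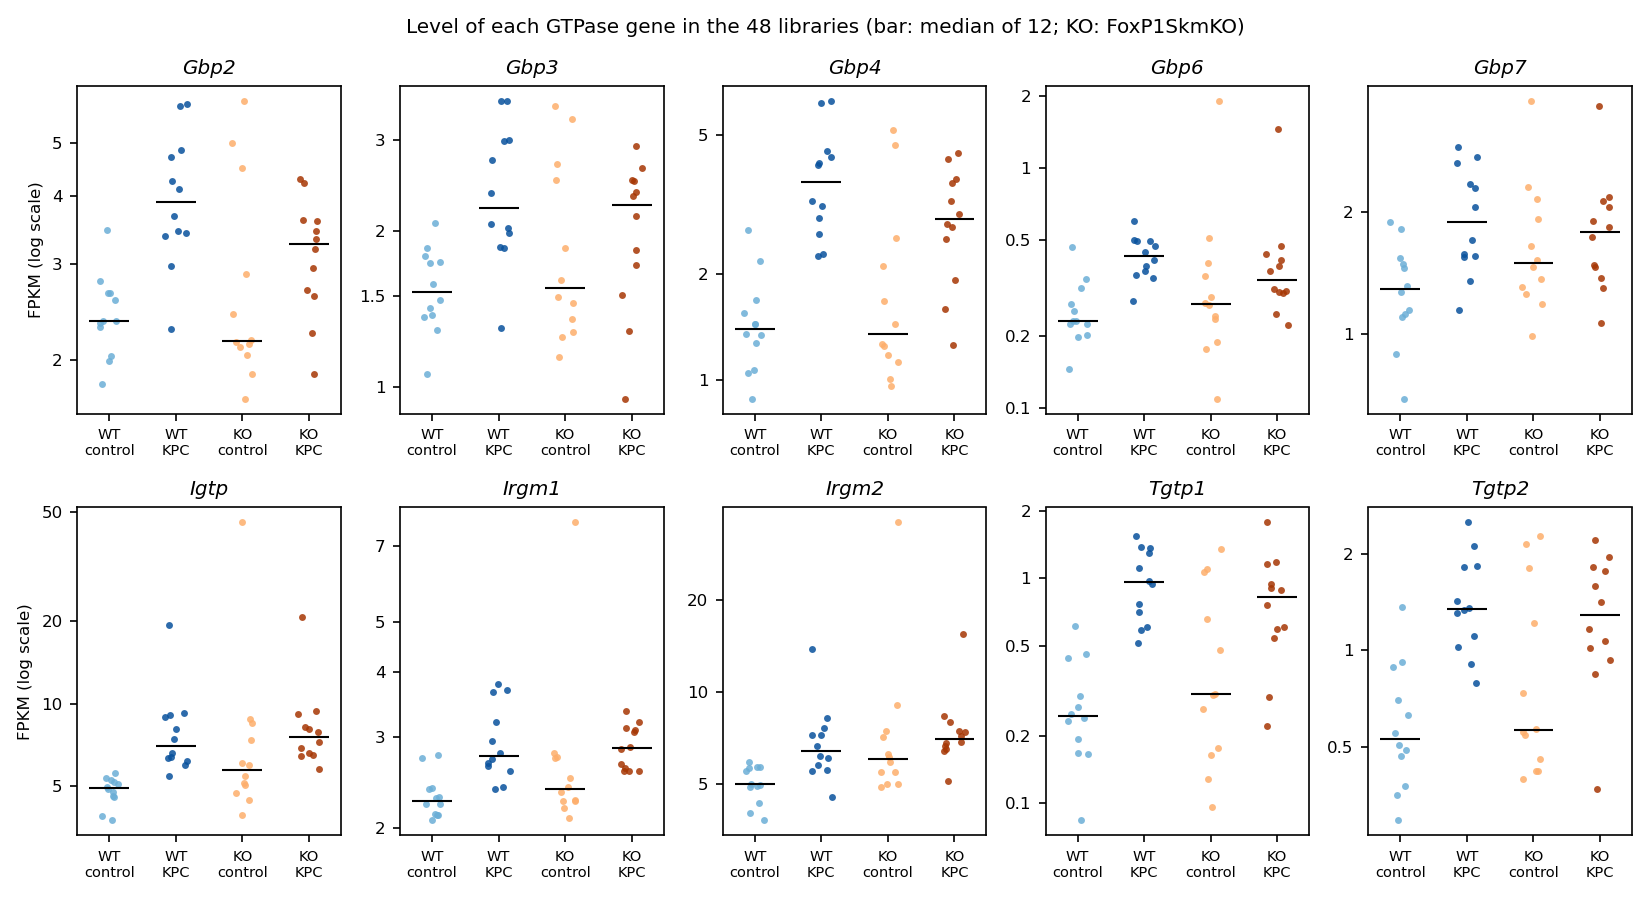
FPKM of each of the 10 genes on a log axis in the 4 combinations of genotype and condition, with 1 point per library (12 per group) and a bar at the group median. For Tgtp1, Tgtp2 and Gbp4 the WT KPC points lie mostly above the WT control points, and the FoxP1SkmKO control points span the range of both.

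By edgeR (quasi-likelihood F test, p-values adjusted by Benjamini-Hochberg over the 15637 genes tested), 5 of 10 members (Tgtp1, Gbp4, Tgtp2, Gbp2 and Gbp7) were called higher in WT KPC mice, where 1.16% of all genes tested were called higher. The median log2 difference was 0.73 for the members and 0.00 for all genes. Since this contrast may have chosen the members, nothing is read from that count. The number called depended on single mice, from 3 without WT KPC CT26, CT34 or CT38 replicate 2 to 10 without either FoxP1SkmKO control CT18 mouse, whose spread enters the shared error estimate. Tgtp1, Tgtp2 and Gbp4 were called in 48 of 48 fits that left out 1 library. At a matched time, both KPC mice were above both control mice in 44 of 60 pairs of member and time, beside 19.5% of such pairs over all genes tested.

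In FoxP1SkmKO mice, 0 of 10 members were called between KPC and control mice by edgeR, where 0.134% of all genes were called higher. At an unadjusted p under 0.05, 3 members were higher, beside 6.43% of all genes: Tgtp1 (0.88 ± 0.30, adjusted p = 0.183), Gbp4 (0.60 ± 0.23, adjusted p = 0.24) and Tgtp2 (0.55 ± 0.26, adjusted p = 0.379), the same 3 genes that led in WT mice. DESeq2 on the 48 libraries also called 0, and edgeR with no filter on low counts 3, beside 1.59% of the 33218 genes then tested. The other 7 had averaged log2 differences from -0.01 (Irgm2) to 0.22 (Gbp6), and the member median was 0.14.

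The range of the FoxP1SkmKO control libraries was wide. Gbp4 ranged from 0.961 through a median of 1.35 to 5.16 FPKM in FoxP1SkmKO control and from 1.26 through 2.87 to 4.45 in FoxP1SkmKO KPC libraries. Its highest controls were CT22 replicate 1 (5.16) and CT26 replicate 1 (4.67), above every FoxP1SkmKO KPC library, while 5 controls were below every KPC library.
Tgtp1 ranged from 0.0961 through 0.305 to 1.35 FPKM in control and from 0.221 through 0.827 to 1.78 in KPC libraries, and Tgtp2 from 0.398 through 0.563 to 2.27 and from 0.371 through 1.29 to 2.21. The lowest KPC value of both was that of CT22 replicate 1.
Igtp ranged from 3.92 through 5.72 to 45.7 FPKM in control and from 5.79 through 7.57 to 20.6 in KPC libraries, and Irgm2 from 4.89 through 6.01 to 35.9 and from 5.12 through 7.04 to 15.5. For Igtp the mean was higher in controls (9.27) than in KPC mice (8.57) while the medians and the fitted difference (0.12 ± 0.22) had the opposite sign. The control mean includes the 45.7 FPKM of CT18 replicate 2, and without that library the fitted difference was 0.51.

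Gbp2 ranged from 1.70 through 2.17 to 5.97 FPKM in FoxP1SkmKO control and from 1.88 through 3.27 to 4.30 in FoxP1SkmKO KPC libraries, with a fitted log2 difference of 0.16 ± 0.16. For Gbp3 the values were 1.15 through 1.55 to 3.50 and 0.950 through 2.24 to 2.92 (0.09 ± 0.18). For Gbp7 they were 0.992 through 1.5 to 3.77 and 1.06 through 1.79 to 3.65 (0.09 ± 0.17).
For these 3 genes the medians were higher with tumors and the highest values were in controls. Gbp6 ranged from 0.109 through 0.270 to 1.91 in control and from 0.222 through 0.342 to 1.45 in KPC libraries (0.22 ± 0.25), and Irgm1 from 2.09 through 2.37 to 7.79 and from 2.57 through 2.85 to 3.36 (0.07 ± 0.11). At a matched time, both KPC mice were above both control mice in 19 of 60 pairs of member and time (31.7%), beside 18.6% over all genes tested, and both were below in 0 of 60.
By medians relative to the WT control median, the members stood at 0.919 (Gbp2) to 1.25 (Tgtp1) in FoxP1SkmKO control and at 1.26 (Irgm1) to 3.38 (Tgtp1) in FoxP1SkmKO KPC muscle, beside 1.22 (Irgm1) to 3.92 (Tgtp1) in WT KPC muscle.

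The fit without the libraries labelled FoxP1SkmKO control CT18 replicate 2 and FoxP1SkmKO KPC CT22 replicate 1 was added after the data were seen. It dropped a control library with high members and a KPC library with low members, and kept the other libraries that stood apart. A rise of the KPC difference in FoxP1SkmKO mice was therefore set by that choice and is not a result. The log2 difference of Tgtp1 in FoxP1SkmKO mice was then 1.38, and the member median rose from 0.14 to 0.46. In WT mice the log2 differences of the members kept a median of 0.73.

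The averaged KPC difference was larger in WT than in FoxP1SkmKO mice by 0.28 (Irgm1) to 0.98 (Tgtp1) on the log2 scale, with a median of 0.56, but this difference of differences did not pass for any member: 0 of 10 were called by edgeR (adjusted p from 0.764 to 0.838) and 0% of all genes. At an unadjusted p under 0.05 there were 5 (Gbp2, Gbp4, Gbp3, Tgtp1 and Gbp7), beside 3.4% of all genes, and DESeq2 called 0. With no filter on low counts edgeR called 8, beside 0.313% of the 33218 genes then tested. In that fit the estimated prior degrees of freedom were infinite, so each test used the spread of genes of similar level in place of the gene's own (quasi-dispersion of Gbp4 0.794, against 11.3 with the filter). Without the 2 libraries named above the median was 0.34 and 0 were called. For Igtp this difference was 0.61 with all libraries and 0.22 without FoxP1SkmKO control CT18 replicate 2 alone. A different response between genotypes was therefore not shown for these genes in the fits that used each gene's own spread between mice. The WT side of this contrast may have entered the choice of the members.

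Between genotypes without tumors, 0 of 10 members were called by edgeR and by DESeq2, where edgeR called 1.86% of all genes higher in FoxP1SkmKO mice. The log2 differences ranged from 0.21 (Gbp2) to 0.69 (Tgtp1), and 5 members had an unadjusted p under 0.05, beside 8.59% of all genes higher, with the lowest adjusted p for Irgm2 (0.60 ± 0.19, adjusted p = 0.07) and Igtp (0.66 ± 0.23, adjusted p = 0.108). This contrast shares its WT control mice with the KPC contrast in WT mice and its FoxP1SkmKO control mice with the other. With no filter on low counts, in the fit described above, 8 members were called, beside 2.81% of genes. The member median was 0.42 with all libraries and 0.25 without the 2 libraries named above.
With tumors, 0 of 10 members were called between genotypes by edgeR and by DESeq2, beside 0.256% of all genes called higher in FoxP1SkmKO KPC mice. Differences ranged from -0.40 (Gbp4) to 0.13 (Irgm2), and only Gbp2 (-0.35 ± 0.16, adjusted p = 0.414) had an unadjusted p under 0.05, beside 4.84% of all genes lower. With no filter on low counts 2 members were called, beside 1.41% of genes. Both FoxP1SkmKO KPC mice were above both WT KPC mice in 1 of 60 pairs of member and time and below them in 16 of 60 (26.7%), beside 18.5% and 18.3% over all genes tested.

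**Figure D3:**
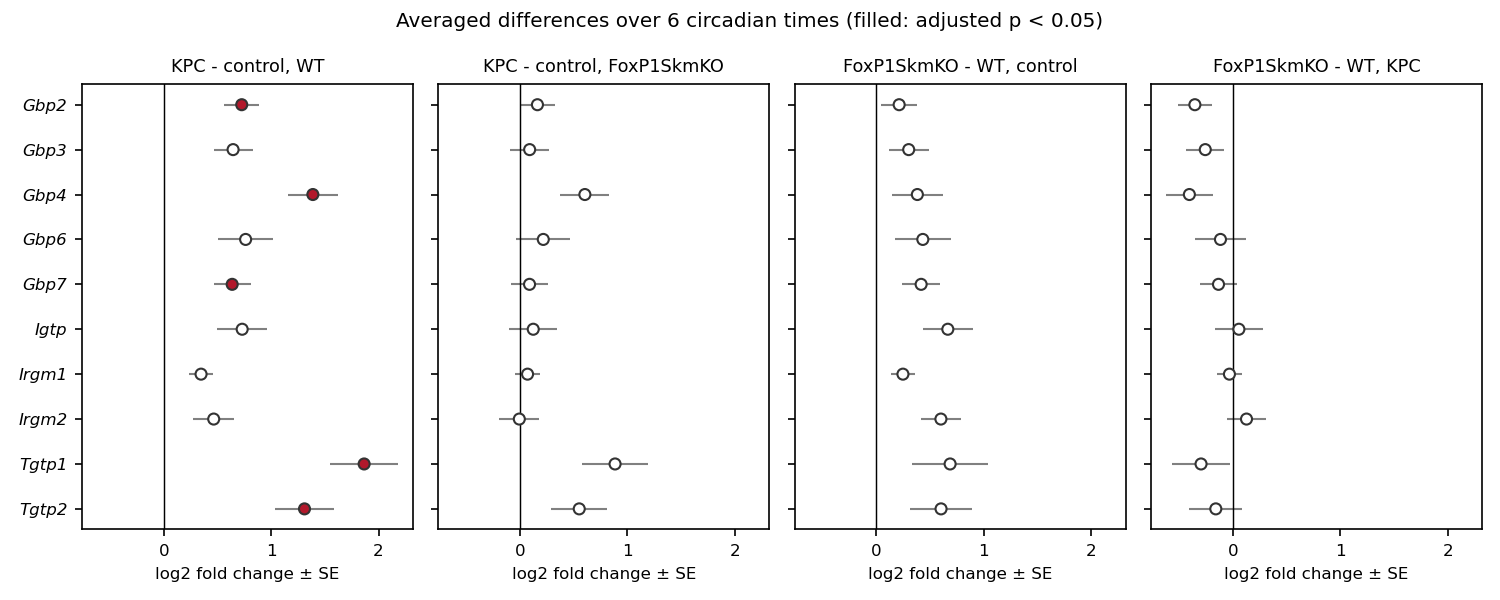
Averaged log2 difference of each gene in the 4 contrasts between conditions and between genotypes, with bars of 1 standard error from the edgeR fit to all 48 libraries and filled points where the adjusted p was under 0.05. Filled points are found only in the KPC contrast of WT mice, for Tgtp1, Tgtp2, Gbp2, Gbp4 and Gbp7.

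The library labelled FoxP1SkmKO control CT18 replicate 2 differed in its order of members from FoxP1SkmKO control CT22 replicate 1 and CT26 replicate 1. Relative to the WT control median, CT18 replicate 2 was 9.31-fold for Igtp (45.7 FPKM on 1710 reads), 8.29-fold for Gbp6 and 7.18-fold for Irgm2 (35.9 FPKM). It was 4.48-fold for Tgtp1, 3.46-fold for Irgm1 and 3.41-fold for Tgtp2, but 1.83-fold for Gbp4. In FoxP1SkmKO control CT22 replicate 1 the order was otherwise, with Tgtp1 at 5.52-fold, Tgtp2 at 4.30-fold and Gbp4 at 3.70-fold against 1.79-fold for Igtp and 1.22-fold for Irgm1. CT26 replicate 1 was similar to the latter, with 4.36-fold for Tgtp1, 3.35-fold for Gbp4 and 1.5-fold for Igtp.
With tumors, FoxP1SkmKO KPC CT18 replicate 1 had Gbp6 at 6.32-fold and Igtp at 4.20-fold, above Tgtp1 at 3.86-fold, Irgm2 at 3.10-fold and Gbp4 at 2.69-fold. WT KPC CT38 replicate 2, the highest WT library for Igtp (3.94-fold) and Irgm2 (2.76-fold), had Tgtp1 at 5.29-fold, Tgtp2 at 3.99-fold and Gbp4 at 3.24-fold, so that its order was a mixed one. These are single mice, and their partners at the same time did not share the values: Igtp was 5.04, 6.61 and 6.39 FPKM in the other mouse of each pair.

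Markers of immune cells were read beside these values. The summed FPKM of 15 T and NK cell markers was 0.152 to 1.02 in WT control, 0.271 to 2.24 in WT KPC, 0.316 to 5.4 in FoxP1SkmKO control and 0.459 to 1.35 in FoxP1SkmKO KPC libraries, and the highest, 5.4, was FoxP1SkmKO control CT18 replicate 2. That library also had the highest macrophage marker sum of its group (64.7, where the group median was 29.7). Over the 48 libraries no marker of these lists was at 0 throughout. Klrb1c was at 0 in all FoxP1SkmKO KPC libraries and Ly6g in all control libraries of both genotypes. Of 10 macrophage markers 0 were called in any of the 5 contrasts, and of 15 T and NK cell markers 2 passed the filter and 0 were called.
Of 5 B cell markers 1 passed the filter and 0 were called. The B cell sum had a median of 21.9 FPKM in WT control, 18.4 in WT KPC, 26.1 in FoxP1SkmKO control and 16.3 in FoxP1SkmKO KPC libraries. Of 7 neutrophil markers 3 passed the filter, and with tumors 2 were called higher in WT mice and 0 in FoxP1SkmKO mice. The median log2 KPC difference of the 3 was 2.06 in WT and 2.31 in FoxP1SkmKO mice. The difference between genotypes had a median of -0.25, and 0 were called. The sum of all 7 had a median of 0.483 in WT control and 2.15 in WT KPC libraries. In FoxP1SkmKO libraries it was 0.430 in control and 1.25 in KPC, with 16.6 in FoxP1SkmKO KPC CT30 replicate 2. S100a8 and S100a9, which encode calcium-binding proteins abundant in neutrophils, were called higher in WT KPC mice. The part of these cells in the GTPase values was not tested. In bulk muscle, fewer cells of a type and less RNA per cell cannot be told apart.

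Upstream of the members, Ifng itself was at 0 FPKM in 42 of 48 libraries, with at most 3 reads in a library, so its level could not be compared at this depth. The receptor and kinase genes did not pass in any contrast: in WT mice with tumors the log2 differences were 0.07 ± 0.06 for Ifngr1, -0.01 ± 0.03 for Ifngr2, -0.02 ± 0.03 for Jak1 and 0.08 ± 0.05 for Jak2. Irf1, a transcription factor that drives GBP and IRG genes, rose by 0.43 ± 0.11 (edgeR adjusted p = 0.038) in WT KPC mice and had 0.06 ± 0.11 in FoxP1SkmKO mice. Its difference between genotypes was not called.

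Genes of related lists, chosen with earlier results known, were counted in the same fit, where 1.16% of all genes tested were called higher in WT KPC mice. Of 12 tested genes of interferon-gamma reception and signaling, 3 rose in WT KPC mice, Irf8, Socs3 and Irf1. Of 12 other tested GBP and IRG genes, 4 rose: Ifi47 (1.10 ± 0.21), Gbp5 (0.74 ± 0.18), Iigp1 (1.2 ± 0.31) and Gbp9 (0.43 ± 0.11). Of 4 other inducible GTPase genes, the very large GTPase genes Gvin2 (1.25 ± 0.19) and Gvin1 (1.09 ± 0.20) rose.
Of 24 other interferon-gamma targets 9 rose, among them the peptide transporter gene Tap1 (0.92 ± 0.20), the checkpoint ligand gene Cd274 (0.91 ± 0.20) and the class II antigen presentation genes H2-Eb1 (0.67 ± 0.15) and Ciita (0.74 ± 0.18), the last a class II transactivator. Of 28 type I interferon-stimulated genes 3 rose, Irf9, Stat2 and Oas2. The list medians were 0.64 for the other GBP and IRG genes, 0.50 for the other targets, 0.20 for signaling genes and 0.20 for type I genes, against 0.00 for all genes. In FoxP1SkmKO mice 0 genes of these lists were called with tumors, beside 0.134% of all genes called higher. The difference of the KPC effect between genotypes was also called for 0 genes of these lists, so a different response was not shown. The list medians in FoxP1SkmKO mice were 0.08, 0.06, 0.05 and -0.08 in the same order. Without the 2 libraries named above, a choice that raised the KPC difference of the members, these medians were 0.36, 0.17, 0.12 and -0.03.
Between genotypes without tumors, Gm4841, an IRG family gene, was the only gene of these lists called higher (1.97 ± 0.42, adjusted p = 0.00544), and Ifit3b, a type I interferon-stimulated gene, fell by 0.43 on the log2 scale (adjusted p = 0.0358).

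At single circadian times, with 2 mice against 2, 0 of 10 members were called by edgeR at any of the 6 times in either genotype. At CT26 in WT mice 4.64% of all genes were called higher. At an unadjusted p under 0.05 the numbers of members higher in WT mice were 1, 4, 5, 6, 4 and 1 in the order of the times, beside 2.94%, 2.32%, 11.6%, 2.74%, 3.17% and 4.96% of all genes, and these too are descriptions. Of the 6 times, the difference was largest at CT30 for 7 of 10 members, at CT26 for Gbp3 and Gbp7 and at CT38 for Igtp. At CT30 the log2 differences were 2.78 ± 0.80 for Tgtp1, 2.11 ± 0.72 for Tgtp2, 2.08 ± 0.58 for Gbp4 and 1.47 ± 0.41 for Gbp2. At CT30 Gbp4 was 1.34 and 0.882 FPKM in the control mice and 6.19 and 3.24 in the KPC mice, whereas at CT38 it was 2.68 and 2.18 in controls and 2.29 and 4.51 in KPC mice, which overlap.
In FoxP1SkmKO mice Gbp4 was 5.16 and 1.44 FPKM in the CT22 controls and 1.26 and 3.64 in the CT22 KPC mice, and the sign of the difference varied between times. At CT38, 4 members were higher at an unadjusted p under 0.05, beside 4.45% of all genes, among them Tgtp1 (2.46 ± 0.75, adjusted p = 0.358), which was 0.306 and 0.176 FPKM in controls and 0.903 and 1.78 in KPC mice. At CT18, Irgm1 (-0.80 ± 0.27, adjusted p = 0.175) and Irgm2 (-0.90 ± 0.43, adjusted p = 0.344) were lower at an unadjusted p under 0.05, beside 5.76% of all genes, at the time of the control library with 7.79 and 35.9 FPKM of these genes.

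**Figure D4:**
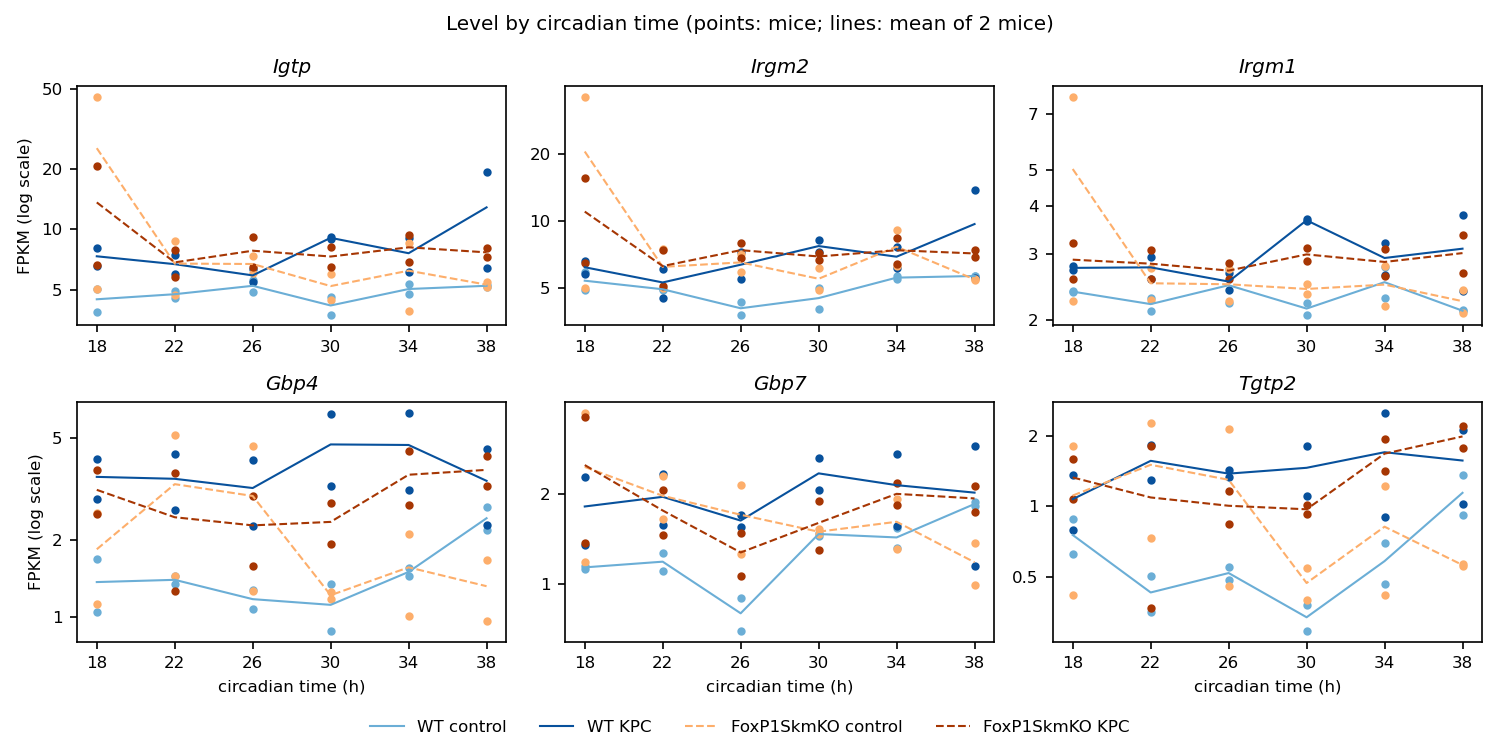
FPKM of Igtp, Irgm2, Irgm1, Gbp4, Gbp7 and Tgtp2 on a log axis against circadian time in hours, with 1 point per mouse and lines through the means of 2 mice for each combination of genotype and condition. The WT control lines of Gbp4, Gbp7 and Tgtp2 are highest at CT38, and the FoxP1SkmKO control lines of the 3 IRG genes Igtp, Irgm2 and Irgm1 peak at CT18 through 1 mouse.

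Across the 6 times within a group, an edgeR F test of the 5 differences between times called 0 of 10 members in WT control mice, where 18.7% of all genes varied, 0 of 10 in WT KPC mice (11% of all genes) and 0 of 10 in FoxP1SkmKO KPC mice (5.99%). No member had an unadjusted p under 0.05 in these 3 groups. In FoxP1SkmKO control mice 4 of 10 were called, beside 6.4% of all genes: Igtp (adjusted p = 0.00728), Irgm2 (0.00959), Irgm1 (0.0196) and Gbp6 (0.0209). These calls rested on CT18 replicate 2, and without it 0 were called (adjusted p = 0.924, 0.716, 0.947 and 0.785).
A 24 h sinusoid fitted to FPKM passed an unadjusted threshold of 0.01 in WT control mice for 1 of 10 members, Irgm2, and for 4.92% of the genes fitted. For Irgm2 the F test gave p = 0.00361 (n = 12) and a Benjamini-Hochberg value of 0.138 over all genes fitted. Its mean was 5.03 FPKM, its amplitude 0.79 FPKM and its peak at CT14.4, a phase close to that of CT38. In WT KPC, FoxP1SkmKO control and FoxP1SkmKO KPC mice 0 members passed, beside 4.22%, 4.07% and 2.63% of genes. In WT control mice 7 of 10 members had their highest time mean at CT38, and 4 had their lowest at CT26 and 4 at CT30, but this was not called by either test beyond Irgm2, and leaving out 1 mouse moved the number of rhythmic members between 0 and 3.

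The members varied together from mouse to mouse. Over the 48 libraries the Pearson correlation of log2 CPM between members was 0.474 to 0.920 over the 45 pairs, with a median of 0.725. After the mean of each of the 24 groups was removed it was 0.544 to 0.928, with a median of 0.776, so that the mice of a pair differed in the same direction for these genes. Within the Gbp genes the residual median was 0.819, within the IRG genes 0.724 and between the families 0.767. These correlations are descriptions across libraries that share groups and a few high libraries.
The genes outside the list most like the mean of the members over the 48 libraries were Iigp1 (0.968), Nlrc5 (0.894), Cd274 (0.883), Tap1 (0.871), B2m (0.870), H2-T23 (0.840), Samhd1 (0.821) and Ifi47 (0.815). On residuals within groups they were Iigp1 (0.971), B2m (0.932), Nlrc5 (0.897), H2-T23 (0.882), Tap1 (0.881), Gbp9 (0.874), H2-Q4 (0.866) and Cd274 (0.863). Nlrc5 is a transactivator of class I antigen presentation genes, B2m, H2-T23 and H2-Q4 encode class I chains, and Iigp1 is an effector IRG gene. Iigp1 was at 13.3 FPKM in FoxP1SkmKO control CT18 replicate 2 and at 0.617 in CT18 replicate 1, the lowest of the 12.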

How the data were processed

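Libraries were made from poly(A) RNA of 48 tibialis anterior muscles. The authors deposited raw read counts per gene in 12 tables, one per genotype and time, and FPKM per gene in a table of 56748 genes. The study methods name STAR and HTSeq, while the submitters' processing notes list HISAT2 (2.0.5) and DESeq2 (1.20.0), both with mm39. Strand use in counting is not given in the sources used here. The count tables omit some genes with few reads in their 4 libraries, and 28541 such values were recovered from the deposited FPKM as whole reads (all within 0.01 of a whole number). The 96 normalized or duplicate per-sample columns were not used, nor were the authors' DESeq2 fold changes, p-values and adjusted p-values.

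Counts were fitted with edgeR 4.0.16 (R 4.3.3; quasi-likelihood F test, TMM scaling, filterByExpr, 24 group coefficients, 15637 genes), with Benjamini-Hochberg adjustment over all genes and a threshold of 0.05. Averaged contrasts are means over the 6 times. Standard errors are the log2 difference divided by the square root of F. DESeq2 1.42.0, limma 3.58.1 on log2(FPKM + 1) and log2(FPKM + 0.1), other scaling, no filter, a replicate block and left-out libraries or times were the alternatives. Rhythm was tested by a 24 h least-squares sinusoid on FPKM with 9 residual degrees of freedom, at p 0.01. The scripts were tested on simulated data. Totals were 14480867 to 20787784 counts per library (median 16602091), and Tgtp1 and Gbp6 rest on as few as 5 and 10 reads, where counting error is large.

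The members and all lists were chosen with earlier results of these data known. The genes named were the 10 members, up to 6 called genes per list and contrast by smallest p, Ifng, Ifngr1, Ifngr2, Jak1, Jak2, Irf1 and Foxp1, and the 8 genes most like the members; 1 further gene of this rule is not reported here. Mice of a group were treated as replicates, and equal replicate numbers did not pair mice: over 12 pairs of groups the correlation of deviations was -0.181 to 0.106 (7872 genes).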

Additional observations from a re-analysis of the deposited data

Results flagged for a closer look

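In 6 pairs of member and time, of the 120 comparisons of direction checked, the FoxP1SkmKO control mice were both above the WT control mice while the FoxP1SkmKO KPC mice were both below the WT KPC mice. At CT30 these were Gbp2, whose mean FPKM in FoxP1SkmKO relative to WT mice was 1.2 without and 0.607 with tumors, Irgm1 (1.13 and 0.812) and Tgtp2 (1.4 and 0.666). At CT26 they were Gbp6 (1.49 and 0.688) and Gbp7 (2.15 and 0.781), and at CT22 Gbp6 (1.31 and 0.770). With 2 mice in each group these opposite directions were not tested at the single times. No share over all genes is at hand for this pattern, so nothing is read from its number. The pairs at CT22 and CT26 include FoxP1SkmKO libraries named above as standing apart from their groups. The test of the same difference averaged over the times called 0 of 10 members.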

How the results depend on the processing

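In the KPC contrast of WT mice, 5 of 10 members were called. The number was 10 with no filter on low counts, beside 2.39% of the 33218 genes then tested. It was 2 with limma on log2(FPKM + 1) and no filter on low FPKM. It was 2 with CT30 and 3 with CT34 left out of the average, and 3 to 10 with 1 library left out. It stayed within 1.5 times of 5 under the other alternatives run, 6 with DESeq2, 5 with RLE size factors, 4 with the replicate block and 4 with limma after filtering, and was 4 of 9 with Tgtp1 and Tgtp2 summed. With no filter on low counts the other contrasts had 3 (KPC in FoxP1SkmKO mice), 8 (difference between genotypes), 8 (genotype in control mice) and 2 members (genotype in KPC mice) instead of 0. The shares of all genes called were 1.59%, 0.313%, 2.81% and 1.41% in the same order. In that fit the estimated prior degrees of freedom were infinite, so each gene's own spread did not enter its test. With 1 library left out they had 0, 0, 0 to 3 and 0, and the 3, Igtp, Irgm1 and Irgm2, were found without FoxP1SkmKO control CT18 replicate 1. The fit without FoxP1SkmKO control CT18 replicate 2 and FoxP1SkmKO KPC CT22 replicate 1 was chosen after seeing the data. Its member medians were 0.73 in WT and 0.46 in FoxP1SkmKO mice, where the choice of libraries set the direction.

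DESeq2 on the 4 libraries of 1 time called 1, 2, 2, 5 and 1 members in WT mice from CT18 to CT34 and 3 at CT38 in FoxP1SkmKO mice instead of 0. The share of all genes called in these fits is not given here, so nothing is read from these counts. DESeq2 on 4 libraries gave no adjusted p for 7 of 10 members at CT26 and 1 at CT34 in WT mice. In FoxP1SkmKO mice it gave none for 10, 10 and 1 at CT26, CT30 and CT34. The F test between times in FoxP1SkmKO control mice called 4 members with all libraries and 0 without CT18 replicate 2. The rhythm test in WT control mice called 1, 0 at a Benjamini-Hochberg value of 0.05, and 0 to 3 with 1 mouse left out. With the replicate block Gbp7 was no longer called and no other call of a member changed. The mice share only a number.

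Single-member differences were counted under each alternative, and for left-out libraries or times only the lowest and the highest value of each member and contrast entered. Of these values 535 kept direction and side of the threshold, 39 passed it, 11 no longer did and 20 changed sign, to -0.11 to 0.37 (log2). More single fits changed sign than this count holds. For Irgm2 in the KPC contrast of FoxP1SkmKO mice, the sign changed in 10 of the 48 fits that left out 1 library. In the KPC contrast of FoxP1SkmKO mice, leaving out 1 library or the 2 above gave -0.043 to 0.30 for Gbp3, -0.054 to 0.299 for Gbp7, -0.049 to 0.541 for Igtp, -0.034 to 0.278 for Irgm1 and -0.14 to 0.367 for Irgm2. There, CT38 left out gave -0.012 for Gbp2, -0.037 for Gbp7 and -0.00041 for Irgm1, CT18 left out gave 0.17 for Irgm2, and limma gave Irgm2 0.057 at a pseudocount of 1, with or without the filter, and 0.076 at 0.1. In the genotype contrast of KPC mice, leaving out 1 library gave -0.32 to 0.0037 for Gbp6, -0.27 to 0.0030 for Gbp7, -0.11 to 0.23 for Igtp and -0.081 to 0.031 for Irgm1, CT18 left out gave -0.11 for Igtp and -0.0095 for Irgm2, and CT30 left out gave 0.022 for Irgm1.

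With 2 mice per group and time and 5 to 93 reads per library for Tgtp1, differences at single times were not detectable unless large.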
